A study of Mus musculus with 41 samples.

Results

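10 genes of receptor tyrosine kinase signaling were read in the RNA of mouse mesothelioma, a tumor of the mesothelial lining of the chest cavity. The genes were named by symbol, without a threshold on their values, and are the receptors Egfr, Erbb2, Erbb3, Met, Pdgfra, Pdgfrb, Igf1r, and Ddr2 and the ligand genes Hgf and Pdgfa, 10 of 27197 genes in the count table. RNA came from 3 BNC cell lines (JB81, JB91, and JB97), 3 NC cell lines (JB84, JB87, and JB93), and 9 tumors. BNC lines had the genotype Bap1-/-;Nf2-/-;Cdkn2ab-/- and NC lines the genotype Nf2-/-;Cdkn2ab-/-, so that loss of Nf2 and of the Cdkn2ab locus was common to all samples and Bap1 loss was what differed. In the mice, Cre came from an adenovirus with a ubiquitous CMV promoter injected into the chest of young adults, and was therefore not limited to mesothelial cells. The lines grew out of pieces of primary tumors in medium with serum, EGF, and insulin, which are ligands or related ligands of receptors described here. The labels name 5 BNC and 4 NC tumors, but a tumor column could not be tied to a genotype, so the tumors were treated as a single group and their genotypes were not compared.

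Receptor tyrosine kinases are membrane proteins that pair up when a ligand binds, phosphorylate each other on tyrosine, and pass the signal to the RAS-ERK and PI3K-AKT cascades. EGFR, ERBB2, and ERBB3 pair among themselves: EGFR binds EGF and TGF-alpha, ERBB3 binds neuregulins but has little kinase activity of its own, and ERBB2 has no known soluble ligand and serves as a partner. MET is the receptor of hepatocyte growth factor, PDGFRA and PDGFRB bind the platelet-derived growth factors, IGF1R binds insulin-like growth factors, and DDR2 is switched on by fibrillar collagen. In normal tissue PDGFRB marks pericytes and other mesenchymal cells, while ERBB3 is most often found in epithelium, and several of these receptors have been studied as drug targets in mesothelioma.

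The counts on genes summed to between 20231284 and 23936922 in BNC lines, 12377675 and 18999233 in NC lines, and 8158740 and 21851974 in tumors. Bap1, which was read over its whole length, had a log2 fold change of -0.57 between BNC and NC lines (adjusted p = 0.039), and Cdkn2a stayed at or below 0.567 CPM (the share of a library's reads that fell on a gene, expressed per megaread and scaled by TMM) in every line. Nf2 was at 88.3 to 123 CPM in all 6 lines (log2 fold change -0.09, adjusted p = 0.734), so counts over the whole gene, which include any exons outside a deletion, did not show the loss that the genotype names. Within each group 2 lines were near copies in expression and the remaining line was not. Only 5 of 10511 genes differed more than 2-fold between JB81 and JB91 and 8 of 10545 between JB84 and JB93, whereas JB97 and JB87 differed so in 1562 to 2470 genes from the lines of their own groups. JB97 and JB87, of different groups, differed so from each other in 1359 of 10404 genes. They were thus closer to each other than either was to its own group. Whether the close pairs are independent lines was not stated in the sources used here, so the results of Egfr, Erbb3, Met, and Pdgfrb are also given with the counts of each pair summed, as 2 lines against 2. In that fit 0 of 12859 genes passed an adjusted p of 0.05 by edgeR, and p-values measure the spread between these lines only. Values of genes other than the members come from the fit of 6 lines. Mesothelial markers other than Wt1 were low in JB81 and JB91, at or below 2.48 CPM. Wt1, whose protein the study stained as a mesothelioma marker, was highest in these lines. The 9 markers summed to 128 CPM in both, nearly all of it Wt1, while the mesothelin gene Msln was at 0.221 and 0.442 CPM. JB97 had a sum of 923 CPM and the NC lines had 2493 to 3122 CPM.

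The upstream windows of Egfr and Met are shown because these receptors stood on opposite sides in the lines, Egfr with less RNA in BNC lines and Met with more. Each window is the 250 bases before the start annotated by RefSeq (GRCm38.p6), chr11:16751953-16752202 for Egfr and chr6:17463707-17463956 for Met, both on the plus strand, written 5′ to 3′. Capitals mark matches on either strand to the GC box GGGCGG, the TEAD motif GGAATG, and the AP-1 motif TGANTCA.
Egfr: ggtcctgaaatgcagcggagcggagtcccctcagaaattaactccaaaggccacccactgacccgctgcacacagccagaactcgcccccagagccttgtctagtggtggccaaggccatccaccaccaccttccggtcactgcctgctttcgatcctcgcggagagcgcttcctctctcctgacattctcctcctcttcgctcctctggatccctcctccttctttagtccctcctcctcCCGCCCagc
Met: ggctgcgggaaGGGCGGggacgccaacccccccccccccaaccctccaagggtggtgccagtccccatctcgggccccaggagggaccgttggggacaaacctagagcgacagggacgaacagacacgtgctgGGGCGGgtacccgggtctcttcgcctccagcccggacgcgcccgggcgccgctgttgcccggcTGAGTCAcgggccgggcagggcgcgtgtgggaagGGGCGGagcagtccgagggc
Egfr held 1 GC box and Met held 3, and Met also held 1 AP-1 match. The same letters occurred in 32.7% of 32851 windows of this length for the GC box, 12.6% for TEAD, and 6.7% for AP-1. The G and C content was 60.8% in the Egfr window and 74.0% in the Met window, against a median of 52.4%. A match is a description of letters and was not tested for binding. The protein-coding gene of Egfr lies at chromosome 11, 16752203 to 16918158, and that of Met at chromosome 6, 17463800 to 17573980. By these positions the Egfr window ends where the gene begins. The last 157 bases of the Met window, which hold the AP-1 match, lie within the gene, so the windows cover unlike regions.

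Between BNC and NC lines, Egfr and Erbb3 RNA was lower and Pdgfrb RNA higher in BNC lines at an adjusted p under 0.05, and Met, Pdgfa, and Igf1r were separated between the groups without passing that threshold. Of the 10 genes, 9 had enough reads to be tested and Hgf did not. None of the 9 passed the study's threshold of an adjusted p under 0.01 and more than 2-fold change by edgeR's quasi-likelihood test, which 1.1% of 12376 tested genes passed. At an adjusted p under 0.05, 3 of 9 passed, beside 14.2% of all genes. The library names begin with a number, called the prefix here, and the labels do not say what it stands for. With the prefix as a covariate 0 of 9 passed 0.05 by edgeR, and 1 of all genes passed the study's threshold. The adjusted p-values were 0.0614 for Egfr, 0.0575 for Erbb3, and 0.0821 for Pdgfrb. In the fit without the prefix 5 of 9 had an unadjusted p under 0.05 (Egfr, Erbb3, Met, Pdgfrb, and Igf1r), beside 35.6%. DESeq2 placed 4 of 9 past the study's threshold (Egfr, Erbb3, Met, and Pdgfrb), beside 15.1% of the genes it tested. In 6 of 9 genes the 3 lines of one group lay above the 3 lines of the other, beside 41.5% of all genes. Over all genes tested the median change was -0.0023 on the log2 scale, or -0.14 when TMM was left out.

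Egfr, the receptor of EGF and TGF-alpha, was read at 63.7 (JB81), 62.4 (JB91), and 38.3 (JB97) CPM, and at 152 (JB84), 243 (JB87), and 147 (JB93) CPM. Every BNC line was below every NC line, with means of 54.8 ± 14.3 CPM and 181 ± 53.9 CPM (SD, n = 3), a 3.30-fold lower mean in BNC lines. On the log2 scale it changed by -1.72 (standard error [SE] 0.30, adjusted p = 0.0227, edgeR). The difference was -1.58 and -1.57 on the log2(CPM + 1) scale in the 2 sets of lines that share a prefix. The prefix sets are JB81 with JB84 and JB87, and JB91 and JB97 with JB93, each with a single line of one group. With close pairs summed the log2 fold change was -1.95 (SE 0.42, adjusted p = 0.298).

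Erbb3, the neuregulin receptor, had its reads mostly in the NC lines. It was at 0.487 (JB81), 0.442 (JB91), and 0.979 (JB97) CPM, which are 10 to 19 reads, and at 15.3 (JB84), 3.30 (JB87), and 15.1 (JB93) CPM. The groups did not overlap, and JB87 lay between the other NC lines and the BNC lines. The mean was 17.6-fold lower in BNC lines (log2 fold change -4.14, SE 0.73, adjusted p = 0.0230, edgeR), and -3.70 on the log2 scale with close pairs summed (adjusted p = 0.318). The BNC reads of Erbb3 lie near the minimum count of 10 for testing, so it entered the test mainly through the NC lines. With only genes of at least 10 counts in every library the log2 fold change of Erbb3 was -4.16 (adjusted p = 0.0247, edgeR). Within the prefix sets it differed by -2.49 and -3.25 on the log2(CPM + 1) scale. Erbb3 lies at chromosome 10, 128567523 to 128589652. Its low and high lines followed the mesothelial marker sum, which was 128 to 923 CPM in BNC lines and 2493 to 3122 CPM in NC lines, and the part of that difference in the Erbb3 result was not tested. Of the 9 markers in that list 5 were lower in every BNC line than in any NC line, beside 41.5% of all genes without overlap in either direction. Keratin 8 (Krt8), an epithelial filament gene, was among them at 0.0442 to 7.42 CPM in BNC lines and 213 to 390 CPM in NC lines. Wt1, Upk1b, Upk3b, and Lrrn4 overlapped between the groups. Wt1 went the other way, at 77.4 to 132 CPM in BNC lines and 76.9 to 113 CPM in NC lines (log2 fold change 0.30, adjusted p = 0.435, edgeR).

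Erbb2 (chromosome 11, 98412470 to 98437716), the common partner of the family, was nearly level. It was at 41.1, 42.3, and 48.9 CPM in JB81, JB91, and JB97 and at 48.9, 49.5, and 49.4 CPM in JB84, JB87, and JB93. The log2 fold change of -0.16 (SE 0.13, adjusted p = 0.410, edgeR) was within the spread between lines. Of the ErbB receptors, Egfr and Erbb3 thus passed an adjusted p of 0.05 and Erbb2 did not, and the differences between the receptors were not tested.

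Met, the receptor of hepatocyte growth factor, was abundant in all 6 lines. It was at 768 (JB81), 754 (JB91), and 434 (JB97) CPM, against 245 (JB84), 373 (JB87), and 250 (JB93) CPM. The lowest BNC line was JB97 and the highest NC line JB87, and the groups did not overlap. The mean was 2.25-fold higher in BNC lines (652 ± 189 against 289 ± 72.4 CPM, SD, n = 3), with a log2 fold change of 1.17 (SE 0.30, adjusted p = 0.0509, edgeR), just outside 0.05. Within the prefix sets the difference was 1.34 and 1.19 on the log2(CPM + 1) scale. With close pairs summed the log2 fold change was 0.95 (adjusted p = 0.495). Its ligand gene Hgf (chromosome 5, 16553495 to 16620152) was not detectable at this depth in the lines, with at most 2 reads in any of them, where 3 reads correspond to between 0.133 and 0.247 CPM.

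Pdgfrb, the receptor of PDGF-BB and PDGF-DD, differed between the line groups. It was at 174 (JB81), 178 (JB91), and 174 (JB97) CPM, so that the BNC lines were nearly equal, JB97 included. The NC lines were at 2.31 (JB84), 23.7 (JB87), and 2.61 (JB93) CPM. The mean was 18.4-fold higher in BNC lines (log2 fold change 4.22, SE 1.01, adjusted p = 0.0447, edgeR). Within the prefix sets it differed by 4.28 and 5.62 on the log2(CPM + 1) scale. JB87 set the error: without it the log2 fold change was 6.17 (SE 0.12, adjusted p = 0.000241), an error in which the NC lines left are the near copies JB84 and JB93, and with close pairs summed it was 3.76 (SE 1.10, adjusted p = 0.332). The summed level of 6 pericyte and smooth muscle markers moved with Pdgfrb. It was 2117 to 3046 CPM in BNC lines, 29.9 and 35.8 CPM in JB84 and JB93, and 701 CPM in JB87. Acta2, smooth muscle actin, made up most of it at 2154 to 3234 CPM in BNC lines and 0.746 to 736 CPM in NC lines, while the pericyte markers Rgs5 and Cspg4 were at or below 0.361 CPM in every line. Other markers of the list went the other way. Des, the desmin gene, was at 0.133, 0.310, and 0.155 CPM in BNC lines and at 1.02, 2.47, and 1.45 CPM in NC lines. Its BNC values are near the floor of 3 reads and it entered the test through the NC lines alone, so its p is not given. Notch3 had a log2 fold change of -0.77 (adjusted p = 0.326, edgeR). The part of this marker difference in the Pdgfrb result was not tested.

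Pdgfra (chromosome 5, 75152292 to 75198215), the receptor that binds the PDGF dimers other than PDGF-DD, overlapped between the groups. It was at 26.8, 27.2, and 43.3 CPM in JB81, JB91, and JB97 and at 18.7, 34.0, and 18.1 CPM in JB84, JB87, and JB93, with JB97 and JB87 the highest of their groups. Its log2 fold change was 0.46 (SE 0.33, adjusted p = 0.350, edgeR), and the prefix sets differed, at 0.09 and 0.89 on the log2(CPM + 1) scale. Pdgfa (chromosome 5, 138976014 to 138997370), which encodes the PDGF-A chain, was at 21.7, 22.8, and 28.8 CPM in the BNC lines against 11.4, 21.5, and 12.2 CPM in NC lines. JB87 came within a narrow margin of JB81, and the log2 fold change was 0.70 (SE 0.30, adjusted p = 0.154, edgeR), with 0.44 and 1.02 within the prefix sets.

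Igf1r (chromosome 7, 67952827 to 68233668), the receptor of IGF1 and IGF2, was at 128, 131, and 150 CPM in JB81, JB91, and JB97 and at 86.4, 108, and 86.2 CPM in JB84, JB87, and JB93. The groups did not overlap and the change was small, at 1.46-fold (log2 fold change 0.54, SE 0.15, adjusted p = 0.064, edgeR), with 0.41 and 0.69 within the prefix sets. Ddr2 (chromosome 1, 169972307 to 170110762), the collagen receptor, was at 604, 598, and 428 CPM in the BNC lines against 486, 253, and 484 CPM in NC lines. Its groups overlapped, with JB97 below JB84 and JB93, and the log2 fold change was 0.41 (SE 0.30, adjusted p = 0.354, edgeR), with 0.78 and 0.06 within the prefix sets.

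**Figure D1:**
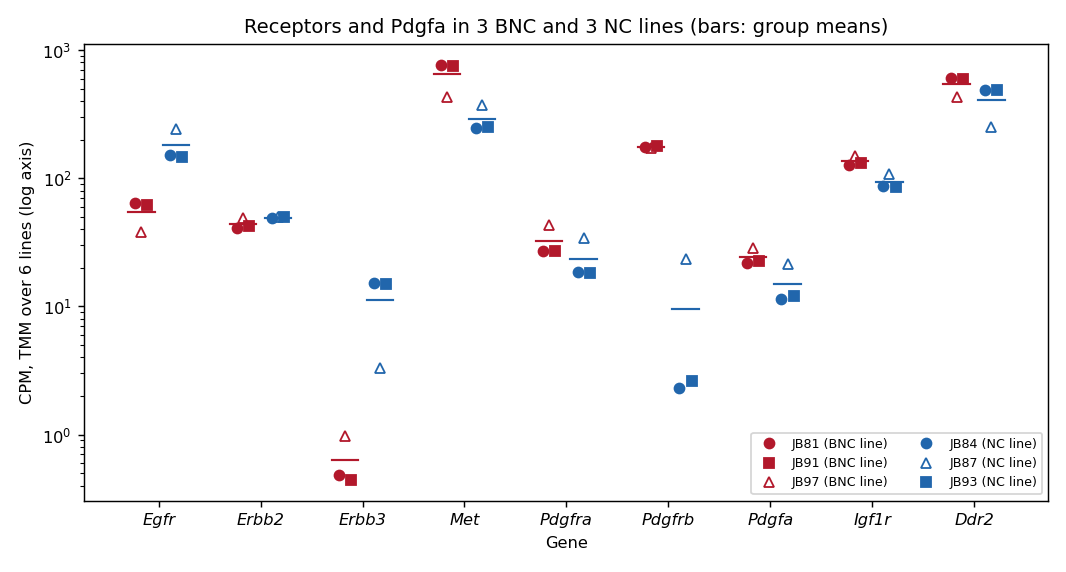
CPM (TMM-scaled over 6 lines, log axis) of the 9 tested genes in each line, BNC lines in red and NC lines in blue, with bars at the group means and open triangles for JB97 and JB87. For Pdgfrb the 3 BNC lines sit at 174 to 178 CPM and the NC lines at 2.31 to 23.7 CPM, while for Erbb2 all 6 lines lie between 41.1 and 49.5 CPM.

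Single lines decided how many of these genes passed. Without JB87, which left the near copies JB84 and JB93 as the NC lines, edgeR placed 4 of 9 past the study's threshold (Egfr, Erbb3, Pdgfrb, and Pdgfa), beside 19.7% of all genes tested in that fit. Without JB81, JB91, JB84, or JB93, each left out alone, 0 of 9 passed an adjusted p of 0.05. Few genes of any kind passed the study's threshold in these fits, 1 without JB81 and 0 without JB91, JB84, or JB93. With the close pairs summed 0 of 9 passed 0.05 either, and 3 of 9 (Egfr, Erbb3, and Pdgfrb) had an unadjusted p under 0.05, beside 11.7% of all genes. With the close pairs summed, DESeq2 placed the same 3 past the study's threshold, beside 4.43% of the genes it tested.

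**Figure D2:**
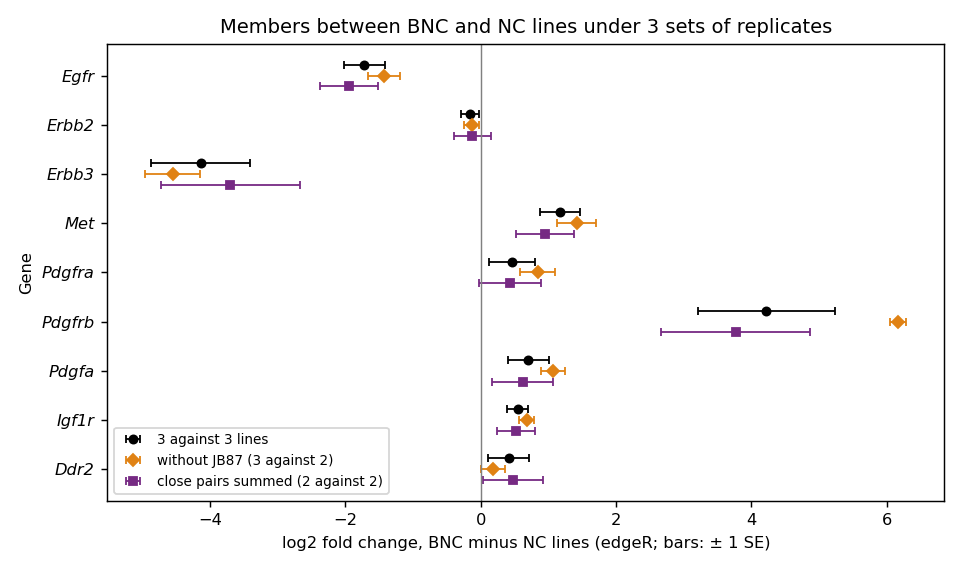
log2 fold change (BNC minus NC lines, edgeR) of the 9 tested genes with bars of 1 standard error, for all 6 lines (circles), without JB87 (diamonds), and with the close pairs summed (squares). Each gene keeps its side of 0 in the 3 fits, and Pdgfrb moves from 4.22 to 6.17 without JB87 and to 3.76 with pairs summed.

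The ligand genes of these receptors moved in both directions between the lines. Of 11 ErbB ligand genes 8 were tested and none passed the study's threshold. Nrg2 was at 0.0443, 0.221, and 0.206 CPM in BNC lines, near the floor of 3 reads, and at 0.724 to 1.22 CPM in NC lines. It entered the test through the NC lines alone, so its p is not given. Of the other tested genes, Nrg1 was higher and Tgfa lower in BNC lines at an adjusted p under 0.05, which 14.2% of all genes passed. Nrg1, which encodes a neuregulin that binds ERBB3, was at 23.96, 25.1, and 14.9 CPM in JB81, JB91, and JB97 and at 5.70, 7.99, and 6.66 CPM in JB84, JB87, and JB93 (log2 fold change 1.65, SE 0.28, adjusted p = 0.0217, edgeR). Tgfa, a ligand of EGFR, was at 10.8, 10.5, and 17.6 CPM in BNC lines and at 41.8, 37.3, and 40.4 CPM in NC lines (log2 fold change -1.62, adjusted p = 0.0168, edgeR). Receptor and ligand thus differed in the same direction for Egfr and Tgfa and in opposite directions for Erbb3 and Nrg1. The list's median log2 fold change was -0.74.

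Of 4 PDGF ligand genes 3 were tested. At an adjusted p under 0.05, which 14.2% of all genes passed, 1 of 3 differed. Pdgfc, which encodes a chain that acts mainly on PDGFRA, was lower in BNC lines, at 9.34, 8.36, and 9.84 CPM against 28.4, 21.3, and 28.1 CPM in NC lines (log2 fold change -1.50, adjusted p = 0.0132, edgeR), and the list's median was 0.70. Of the ligand genes of PDGFRB, Pdgfb was at or below 2.90 CPM in every line and was not tested. Pdgfd was at 14.6, 15.2, and 3.6 CPM in BNC lines and at 0, 6.84, and 0.145 CPM in NC lines. The groups overlapped for Pdgfd, and it did not pass 0.05. Of 7 genes for the ligands of MET and RON and their activators and inhibitors only Spint1, a protease inhibitor gene, was tested. It was at 0.0884 to 0.309 CPM in BNC lines, near the floor of 3 reads, and at 0.746 to 3.13 CPM in NC lines. Like Nrg2 it entered the test through the NC lines alone, so its p is not given.

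In the IGF and insulin axis all 13 genes were tested, and the median was 1.60. Of the 12 genes other than Igfbp5, 3 were higher in BNC lines at an adjusted p under 0.05 and none was lower, beside 14.2% of all genes. That count includes Igfbp3 and Igf2, which entered the test through the BNC lines, so it is not a result about the list. Igfbp5 and Igfbp3 encode proteins that bind IGFs outside the cell. Igfbp5 was at 45.8 and 52.8 CPM in JB81 and JB91 but at 1.13 CPM in JB97, with at most 0.0824 CPM in NC lines, which is at or under the floor of 3 reads. It entered the test through the BNC lines alone, so its p is not given. Igfbp3 was at 121, 123, and 4.64 CPM in the BNC lines against 0.271, 2.06, and 0.386 CPM in NC lines, so that both were high in the close pair and low in JB97. The p of Igfbp3 is not given for the same reason. The remaining genes past 0.05 were Igf2, an IGF1R ligand gene, and Igf2r, the gene of a receptor that clears IGF2. Igf2 was at 13.1, 13.2, and 4.2 CPM in BNC lines and at 0.746, 0.165, and 1.74 CPM in NC lines. Its p is not given either. Igf2r had a log2 fold change of 1.60 (adjusted p = 0.0498, edgeR). Of 9 fibrillar collagen genes, whose proteins include the ligands of DDR2, Col2a1 was at 69.0, 77.5, and 204 CPM in BNC lines and at most 0.165 CPM in NC lines, at or under the floor of 3 reads, and like Igfbp5 entered the test through the BNC lines alone. Of the 8 other genes 1 passed 0.05, beside 14.2% of all genes. It was Col5a3, with 25.7, 28.5, and 10.1 CPM in BNC lines and 0.136 to 1.40 CPM in NC lines. Col5a3 too entered the test through the BNC lines, so its p is not given. The count is therefore not a result about the list, whose median was 0.92.

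Genes that act below the receptors were read as 2 lists. Of 15 adaptors and negative regulators 2 were lower in BNC lines at an adjusted p under 0.05 and none higher, beside 14.2% of all genes, with a median of -0.17. Errfi1, whose product inhibits EGFR and ERBB2, was at 28.3, 26.6, and 28.1 CPM in BNC lines and 166, 68.1, and 171 CPM in NC lines (log2 fold change -2.29, SE 0.37, adjusted p = 0.0191, edgeR). Ptprj, a receptor phosphatase gene, had a log2 fold change of -1.02 (adjusted p = 0.0165, edgeR). Of 15 genes known to be induced by ERK signaling, Etv4 (-1.50, adjusted p = 0.0156) and Spry2 (-0.71, adjusted p = 0.0389) were lower in BNC lines and none was higher, again 2 of 15 beside 14.2%, with a median of -0.32. RNA of these genes is not a measure of phosphorylated receptor or ERK.

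Against the whole receptor tyrosine kinase family, the members were not alone in moving. Of 58 family genes 35 were tested. At an adjusted p under 0.05, 7 of 35 passed beside 14.2% of all genes, of which 4 were higher in BNC lines (Pdgfrb, Fgfr2, Ryk, and Ddr1) and 3 lower (Egfr, Erbb3, and Lmtk2), with a median log2 fold change of 0.50. Fgfr2, an FGF receptor gene, was at 116, 118, and 66.7 CPM in BNC lines and at 1.36, 13.1, and 1.25 CPM in NC lines, a pattern near that of Pdgfrb with JB87 again between (log2 fold change 4.28, adjusted p = 0.0459, edgeR). Ddr1, the sister gene of Ddr2, had a log2 fold change of 1.07 (adjusted p = 0.0339), and Ryk, a WNT co-receptor gene, one of 1.85 (adjusted p = 0.0246).

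**Figure D3:**
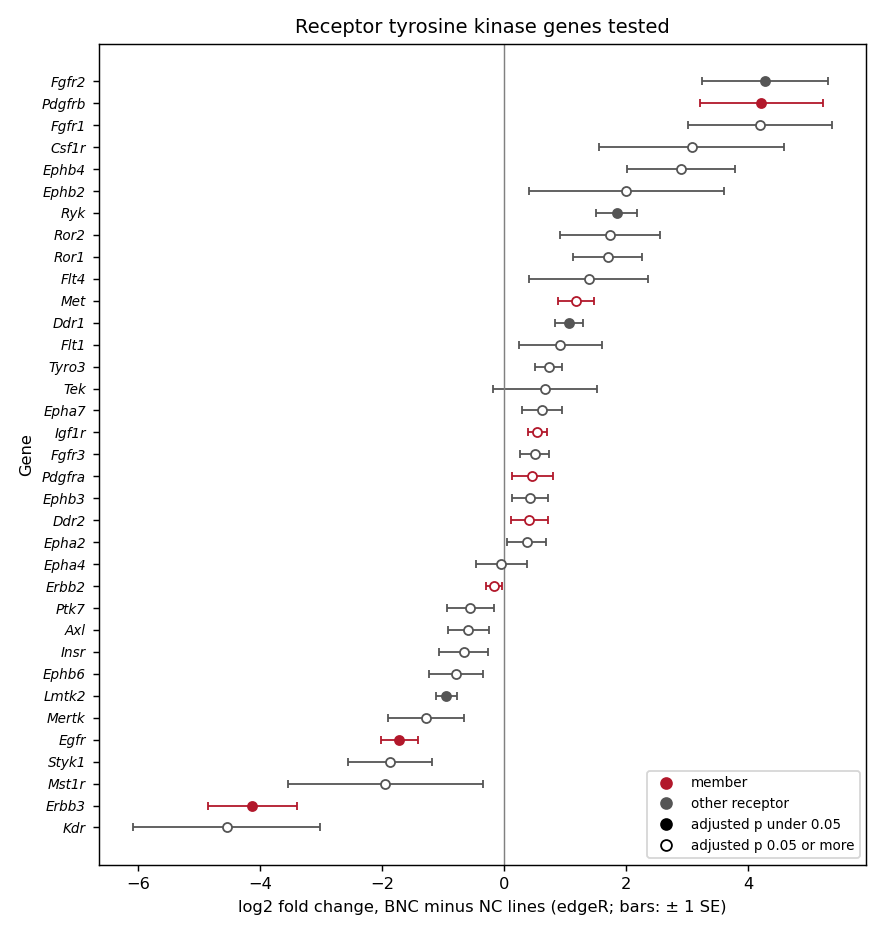
log2 fold change (BNC minus NC lines, edgeR) of the 35 tested receptor tyrosine kinase genes with bars of 1 standard error, members in red and other receptors in gray, filled where the adjusted p is under 0.05. Pdgfrb (4.22) and Fgfr2 (4.28) stand at the upper end and Erbb3 (-4.14) near the lower end.

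In the tumors the same genes were ordered otherwise. Compared with the 6 lines, Pdgfra was higher in the tumors, and Erbb2, Met, Igf1r, and Ddr2 were lower. Pdgfrb also passed but only under some settings. By edgeR over 15 libraries 2 of the 9 genes other than Hgf were called higher in tumors, beside 28.2% of 15675 genes tested, and 4 of 9 lower, beside 11.5%. Hgf entered this test through the tumors alone and is described by its reads. Tumors and lines did not overlap for 2 of 9 (Erbb2 and Igf1r), beside 25.3% of genes. The median log2 fold change of all genes was 0.38 with TMM, 0.27 with library size alone, and 0.43 with DESeq2, so a value of 0 lies below the median gene.

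Tumor tissue holds other cells beside tumor cells, and fewer cells of a type cannot be told apart from less RNA per cell in bulk RNA. The marker sums moved with the comparison. The 8 leukocyte markers summed to 607 to 4911 CPM in tumors and 3.71 to 41.7 CPM in lines, the 5 endothelial markers to 70.5 to 695 CPM and at most 0.413 CPM, and the 5 fibroblast markers to 1118 to 5728 CPM and 6.34 to 51.7 CPM. Cd3e and Cldn5 had 0 reads in every line. The tumor libraries also carry another prefix than the lines, so tissue and whatever the prefix stands for cannot be told apart. Tumors B1, B13, B19, and B45 had 6823 to 30890 CPM of heart and skeletal muscle markers, B2 had 44810 CPM of lung and other epithelial markers, and in B1 24.7% of counts fell on Gm42418, a locus that overlaps ribosomal RNA sequence. Without those 4 muscle-rich tumors 4 of 9 were called in either direction, beside 32.1% of genes, and 6 of 9 without B2, beside 37.7%, or without B28, beside 41.7%. The part of these cells and reads in the differences below was not tested.

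Hgf, not detectable at this depth in the lines, had reads in every tumor. It ranged from 0.571 CPM in B1 (2 reads, under that library's floor of 0.856 CPM) through a median of 2.42 CPM to 33.2 CPM in B28 (729 reads), and 8 of 9 tumors had more than 3 reads while no line had. The tumor median was at least 10.5-fold higher than the level of 3 reads in the shallowest line. Its receptor gene Met went the other way, from 46.2 CPM in B28 through a median of 80.2 CPM to 271 CPM in B14, against 227 to 717 CPM in lines on the same scale. In 8 of 9 tumors Met was below every line, and the log2 fold change was -2.01 (SE 0.36, adjusted p = 0.000282, edgeR).

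Pdgfra was between 40.8 CPM (B1) and 523 CPM (B28) in tumors, with a median of 92.1 CPM, against 16.98 to 42.1 CPM in lines. It was above every line in 8 of 9 tumors (log2 fold change 2.47, SE 0.55, adjusted p = 0.00154, edgeR). With the close pairs of lines summed the value was 2.27 and no longer passed 0.01 (adjusted p = 0.0146). Pdgfrb was more even, from 59.7 CPM (B1) through 118 CPM to 227 CPM (B27), above every NC line in all 9 tumors, below the 163 to 169 CPM of the BNC lines in 8, and above them in B27. Its log2 fold change against all lines was 1.70 (adjusted p = 0.00669, edgeR), which lost the call without JB81 (adjusted p = 0.0191), JB91 (0.0187), JB97 (0.0177), JB84 (0.0161), or JB93 (0.0177), with library size alone (0.0128), with pairs summed (0.0328), without B1 and B13 (0.0102), and without the 4 muscle-rich tumors (0.0174). Without JB87 it was 2.67 (adjusted p = 3.13e-05). Pdgfa ranged from 17.1 CPM (B45) through 27.97 CPM to 64.5 CPM (B27) and did not pass (log2 fold change 0.77, adjusted p = 0.0259, edgeR).

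Igf1r was lower in all 9 tumors than in any line, from 3.42 CPM (B2) through a median of 13.7 CPM to 58.1 CPM (B28), against 80.1 to 145 CPM in lines (log2 fold change -2.55, SE 0.45, adjusted p = 0.00028, edgeR). Ddr2 ranged from 49.4 CPM (B1) through 83.2 CPM to 311 CPM (B28), against 237 to 564 CPM in lines, and was below every line in 8 of 9 tumors (log2 fold change -1.86, SE 0.37, adjusted p = 0.000665, edgeR). Erbb2 was between 8.24 and 31.8 CPM with a median of 22.5 CPM, below the 38.4 to 47.6 CPM of the lines in all 9 tumors (log2 fold change -1.10, adjusted p = 0.00251, edgeR), though without the 4 muscle-rich tumors the adjusted p was 0.0239, and with only genes of at least 10 counts in every library it was 0.0155.

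The remaining ErbB receptors were not called between tumors and lines by edgeR. Egfr in tumors, from 53.1 CPM (B1) through 78.7 CPM to 169 CPM (B13), lay within the 37.3 to 228 CPM of the lines, at a log2 fold change of -0.02 (SE 0.28, adjusted p = 0.966, edgeR), which is -0.39 relative to the median gene. Erbb3 ranged from 2.15 CPM (B27) through 6.82 CPM to 31.7 CPM (B2), against 3.09 to 14.2 CPM in NC lines. It was above the 0.415 to 0.951 CPM of the BNC lines in all 9 tumors, and B2 alone exceeded every NC line. The log2 fold change of Erbb3 against all lines was 1.74 (SE 0.65, adjusted p = 0.0303, edgeR). DESeq2 called it, at 1.84 (adjusted p = 0.00613), and without B2 it was 1.12 by edgeR (adjusted p = 0.0684).

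**Figure D4:**
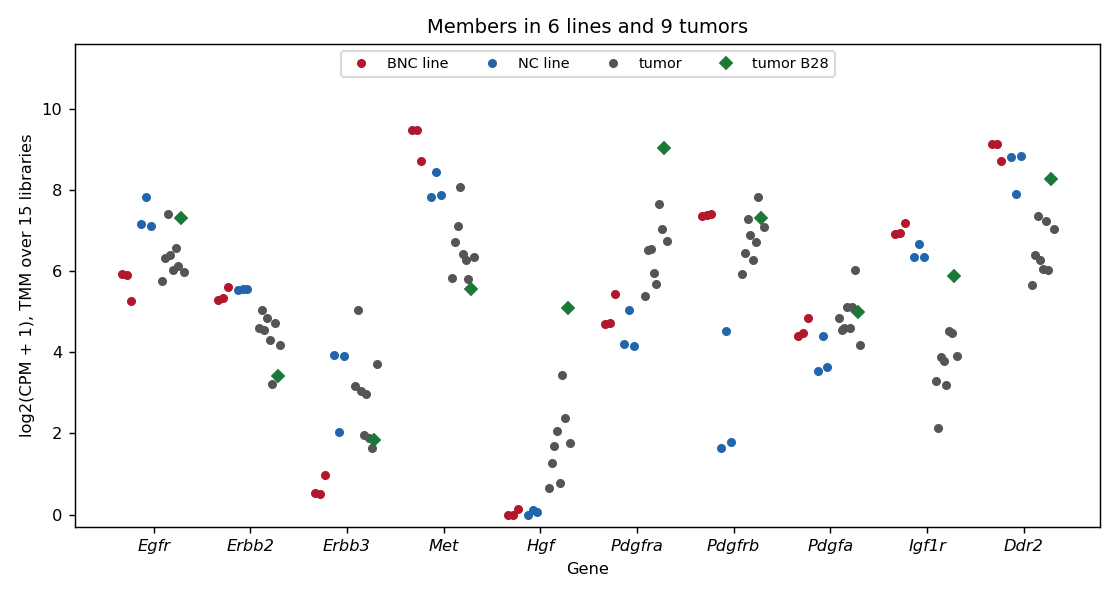
log2(CPM + 1), TMM-scaled over 15 libraries, of the 10 genes in BNC lines (red), NC lines (blue), and tumors (gray, with B28 as a green diamond), 1 point per library. Hgf has at most 2 reads in any line and reaches 33.2 CPM in B28, while all 9 tumors lie below all 6 lines for Igf1r and Erbb2.

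Tumor B28 held the highest value of Hgf, Pdgfra, Igf1r, and Ddr2 and the lowest of Met. Over the 9 tumors Hgf and Pdgfra had a Pearson r of 0.955 on the log2(CPM + 1) scale, Hgf and Igf1r one of 0.879, and Egfr and Ddr2 one of 0.825, while Hgf and Erbb2 had -0.728 and Erbb3 and Igf1r -0.792. These are descriptions over 9 libraries that share differences in cell makeup and in which B28 is an extreme point. Among 9636 genes with a median of at least 10 CPM, the pattern nearest to Met was that of Efna5 (r = 0.972), followed by Ezr (0.963) and Timp3 (0.949). Nearest to Pdgfra were Ythdc1 (0.975), Rsbn1 (0.968), and Kdm3a (0.964), nearest to Igf1r were Kctd17 (0.987), Npepps (0.970), and Fbxo28 (0.953), and nearest to Ddr2 were Tbc1d23 (0.983), Med13 (0.977), and Mier3 (0.971). Egfr was closest to Cblb (0.909), Cnot6l (0.908), and Abi2 (0.900), Erbb2 to Grb14 (0.973), Mif4gd (0.970), and Rasal3 (0.963), Pdgfrb to Arid3a (0.942), Fnip2 (0.921), and Tnfrsf21 (0.921), and Pdgfa to Zyx (0.963), B4galt7 (0.959), and Il1rn (0.954).

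Levels of different genes were compared as CPM per kb of merged exons. In BNC lines the order of the medians was Met at 92.1, Ddr2 at 60.6, and Pdgfrb at 30.5 CPM per kb, then Erbb2 at 7.62, Igf1r at 7.31, Pdgfa at 6.86, and Egfr at 5.17, with Pdgfra at 2.55 and Erbb3 at 0.0756 below them. The ranges of Erbb2, Igf1r, and Pdgfa overlapped, as did those of Met and Ddr2 and those of Egfr and Pdgfra. In NC lines Ddr2 led at 48.7 CPM per kb, followed by Met at 30.5 and Egfr at 12.5, with overlapping ranges for Ddr2 and Met. Erbb2 was at 8.90, Igf1r at 4.82, Pdgfa at 3.66, Erbb3 at 2.35, Pdgfra at 1.73, and Pdgfrb at 0.446 CPM per kb. In NC lines the ranges of Igf1r and Pdgfa overlapped, and those of Erbb3, Pdgfra, and Pdgfrb did. By its median Pdgfrb was thus the third of these genes per length in BNC lines and, Hgf aside, the last in NC lines. In tumors Pdgfrb had the highest median at 21.5 CPM per kb, then Met at 10.5, Pdgfra at 9.19, Ddr2 at 8.99, Pdgfa at 8.97, Egfr at 6.95, Erbb2 at 4.33, Erbb3 at 1.13, Igf1r at 0.818, and Hgf at 0.337. The ranges of all neighbors in this order overlapped, so that it is not beyond the spread between tumors.

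**Figure D5:**
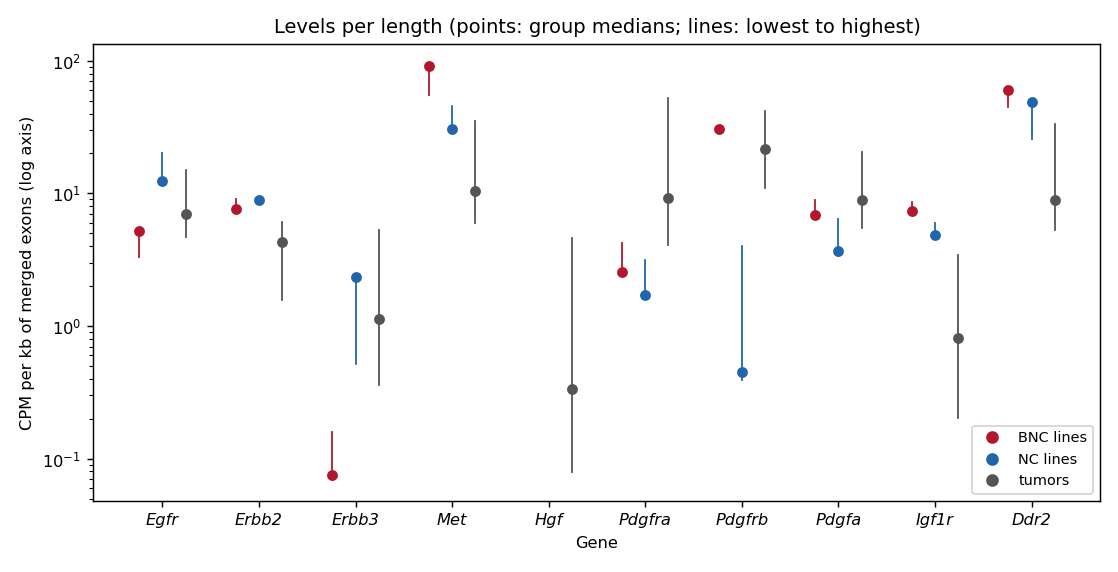
CPM per kb of merged exons (log axis) by group, with points at the medians of BNC lines (red), NC lines (blue), and tumors (gray) and vertical lines from the lowest to the highest library. Hgf is drawn for tumors only, because no line had more than 3 reads, and Pdgfrb falls from 30.5 in BNC lines to 0.446 in NC lines.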

How the data were processed

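RNA of 6 cell lines and 9 tumors was analysed. Libraries were enriched for poly-A RNA and read from a single end. Per the submitters' processing notes and the study's methods the authors aligned them to mm10 with TopHat2 2.0.12 and HTSeq tallied reads per Ensembl gene, and the deposited values are these counts without normalization. The strand setting of the counting is not given in the sources used here, so reads of Egfr, Erbb2, Pdgfra, Ddr2, and Pdgfa cannot be told apart from those of genes overlapping them on the other strand. Lines were assigned to groups by line name from the study's column heads, since the table heads carry no genotype. The 14 columns of DNA log2 values and the chromatin profiles were not used here.

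The test was edgeR 4.0.16 under R 4.3.3 (filterByExpr with a minimum count of 10, TMM, glmQLFit and glmQLFTest), fitted over all genes with Benjamini-Hochberg adjustment. A gene was called at an adjusted p under 0.01 and more than 2-fold change, as in the study, which used DESeq2. DESeq2 1.42.0 was an alternative here. BNC and NC lines were compared in a fit of the 6 lines, and tumors with the mean of both line groups in a fit of 15 libraries. CPM values in line comparisons are scaled over 6 lines, and those set beside tumors, marker sums, and values per kb over 15 libraries. Log2 values other than fitted fold changes use a pseudocount of 1. The floor of detection is 3 counts, covers counting error only, and is highest in B1 at 0.856 CPM. The scripts were tested on simulated counts.

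Named genes are the 10 members, the targeted genes, in each pathway list the called genes and those with the 2 smallest p-values, and the 3 genes most like a member over the tumors (median of at least 10 CPM). Nrg2, Igf2, Igf2r, Fgfr2, Ryk, Ddr1, Lmtk2, Pdgfb, Pdgfd, Des, Notch3, and other single markers were chosen after seeing their values. The members and lists were chosen with earlier results of these data known. Of the members, 8 of 10 had an upstream window in the RefSeq table that could be shown. Gene positions and exon lengths are from GRCm38 with GENCODE release M21, and figures come from matplotlib 3.10.9 under Python 3.11.15.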

Additional observations from a re-analysis of the deposited data

Results flagged for a closer look

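In 7 of the 10 genes a single tumor stood apart from the other 8 by Dixon's test at the 95% level, taken on raw CPM. The test's rate of about 1 in 20 groups assumes normal values and independent groups. Raw CPM need not be normal, the log scale was not tested, and the 10 genes share the same 9 tumors. The count of 7 therefore cannot be set against that rate, and the tumors named are descriptions. B28 was apart for 4 of them: Hgf at 33.2 CPM (next highest 9.90 CPM), Pdgfra at 523 CPM (next 199.9 CPM), Igf1r at 58.1 CPM (next 21.98 CPM), and Ddr2 at 311 CPM (next 163 CPM). B28 had the lowest leukocyte marker sum of the tumors, 607 CPM, and a pericyte and smooth muscle sum of 644 CPM, also the lowest. Its mesothelial marker sum of 848 CPM was low as well, beside 847 CPM in B27, the lowest. The part of these sums in the B28 values was not tested. Erbb3 was apart in B2 at 31.7 CPM (next 12.03 CPM), the tumor with 44810 CPM of lung and other epithelial markers, and the part of those markers in it was not tested. Met was apart in B14 at 271 CPM (next 137 CPM), which had the highest mesothelial marker sum, 5680 CPM. Pdgfa was apart in B27 at 64.5 CPM (next 34.0 CPM). Egfr, Erbb2, and Pdgfrb had no tumor apart.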

How the results depend on the processing

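The number of genes called between BNC and NC lines was 136 by edgeR and 2023 by DESeq2. By edgeR it was 83 with at least 10 counts in every library and 1 with the prefix as a covariate. It was 1436 at an adjusted p under 0.05 with more than 2-fold change. With close pairs summed it was 0 by edgeR and 582 by DESeq2. Left out 1 at a time, the lines gave 0 to 2574 genes, with 2574 without JB87, 984 without JB97, 1 without JB81, and 0 without JB91, JB84, or JB93. Of the members, 0 were called by edgeR, 4 by DESeq2, 3 by DESeq2 with pairs summed, 3 at the looser threshold, and 0 to 4 with a line left out. At an adjusted p under 0.05 there were 3 by edgeR, beside 14.2% of all genes, and 0 with pairs summed, where 0 of 12859 genes passed. There were 5 by DESeq2 and 0 to 7 with a line left out, the 7 without JB87. No share of all genes at 0.05 is given for these fits, so their counts are not a result about the members. At the study's threshold DESeq2 called 15.1% of genes and the fit without JB87 called 19.7%. With a replicate block by the numbers in the column heads 0 genes were called, 0 members passed 0.05, and with JB97 numbered 3 the block also called 0 genes and left 2 members past 0.05 (Egfr 0.044 and Erbb3 0.0463). With the prefix as a covariate no member passed 0.05. Deviations of lines of the same number correlated at -0.0839 to 0.124, and at -0.0918 for JB97 with JB93 when JB97 is numbered 3. With near copies in each group these deviations reflect mostly JB97 and JB87, so the correlations cannot show whether lines are paired. No member changed direction between BNC and NC lines under the 15 alternatives run.

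Between tumors and lines 6220 genes were called, and 2796 with at least 10 counts in every library. The sign of Egfr turned, never near the threshold: 0.060 by DESeq2, 0.22 with at least 10 counts in every library, 0.084 without B1, 0.0017 without B2, 0.019 without B1, B13, B19, and B45, 0.024 without JB81, 0.014 without JB91, and 0.11 without JB87. The settings that leave out tumors, and DESeq2 with pairs summed, were chosen after seeing the data. In all, 137 of the member values between tumors and lines kept direction and side of the threshold, 12 lost the threshold, 2 gained it, and 8 turned, over 16 alternatives. The cause of these changes was not tested, and depth limits Hgf in the lines and in B1.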
